A study of Mus musculus with 3 samples.

Results

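Glycolysis and the hypoxia response are described here through a list of 36 genes, measured in CD4+CD25- T cells under 3 cytokine conditions. The list joins glucose and lactate transporters, the enzymes from hexokinase to lactate dehydrogenase, the oxygen-regulated transcription factor HIF-1α with the proteins that destroy it, and genes known as HIF-1α targets. Members were found by name: a probe set (a group of probes for the same transcript) counted when the listed gene was its sole gene, and the brightest one on average across the 3 arrays stood for the gene. This gave 34 of the 36 genes, out of 18193 named genes on the array. Ero1l was found under its current symbol Ero1a. For Gapdh the probe sets naming it alone are array control probe sets, so its values are given apart and 33 genes enter all counts. Bnip3l shares its probe sets with a pseudogene and Eno1 was matched to no probe set, so neither is counted.

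The cells came from spleens and lymph nodes of female mice, 6 to 8 weeks old, on a BALB/c background and with Stat6 and T-bet both knocked out. All 3 cultures therefore carry both deletions, and a wild-type culture was not analysed here. Stimulation through plate-bound anti-CD3 (5 µg/ml) plus anti-CD28 (1 µg/ml) lasted 2 days, with TGFβ alone at 5 ng/ml, with IL-6 and IL-23 at 10 ng/ml each, or with IL-6 at 10 ng/ml and TGFβ at 5 ng/ml. The study set IL-6/TGFβ against TGFβ to find genes behind IL-17 and IL-10, and against IL-6/IL-23 to set aside those behind IL-17 alone. Each condition has 1 array, so no difference below has a replicate check, a p-value or an SD. The labels do not say how many mice were used or what the deletions removed. In RNA of a whole culture, fewer cells of a type and less RNA per cell cannot be told apart.

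In glycolysis, glucose enters through GLUT transporters and is phosphorylated by hexokinase, split, oxidised and turned into pyruvate, which lactate dehydrogenase reduces to lactate for export. Activated T cells use this pathway heavily even when oxygen is present. When oxygen is plentiful, prolyl hydroxylases (the Egln genes) mark HIF-1α and the VHL protein leads it to degradation, and when oxygen falls the protein accumulates and switches on glucose transporters, glycolytic enzymes and genes that curb mitochondrial use of pyruvate. HIF-1α is also induced by T cell receptor and cytokine signals and is known to favour Th17 over regulatory T cells. The arrays measure RNA, and neither HIF-1α protein nor oxygen was measured.

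HIF-1α binds DNA at a short core, ACGTG or GCGTG, so the promoters of 8 members are shown. Of these, 7 are all the genes with a RefSeq window at least 2-fold higher with IL-6/IL-23 than with TGFβ, with or without a match. P4ha1 is shown as 1 of the 7 members highest with IL-6/TGFβ. Mxi1, the only one of these at least 2-fold above both other cultures, is not shown. The first listed window of Mxi1 holds no match, and its other listed windows hold 1 ACGTG each. Each window runs from 250 bases before the gene start to 50 bases after it, on the gene's own strand, from RefSeq on build GRCm38.p6. Bnip3 lies at chr7:138909457-138909756 (minus strand), Ankrd37 at chr8:45999801-46000100 (minus strand) and Slc16a3 at chr11:120948817-120949116 (plus strand). Hk2 lies at chr6:82774405-82774704 (minus strand), Hif1a at chr12:73907617-73907916 (plus strand) and P4ha1 at chr10:59323046-59323345 (plus strand). The first listed windows of Ak4 and Vegfa lie at chr4:101419039-101419338 (plus strand) and chr17:46032328-46032627 (minus strand). Capitals mark ACGTG or GCGTG on either strand, and neighbouring matches run together, as in CACGTG, which holds the core on both strands.

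Bnip3: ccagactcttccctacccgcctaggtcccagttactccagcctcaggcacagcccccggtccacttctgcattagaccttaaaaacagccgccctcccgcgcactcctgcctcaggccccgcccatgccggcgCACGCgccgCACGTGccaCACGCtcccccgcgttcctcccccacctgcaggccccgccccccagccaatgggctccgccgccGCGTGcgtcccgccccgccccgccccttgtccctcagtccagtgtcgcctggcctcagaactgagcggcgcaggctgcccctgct
Ankrd37: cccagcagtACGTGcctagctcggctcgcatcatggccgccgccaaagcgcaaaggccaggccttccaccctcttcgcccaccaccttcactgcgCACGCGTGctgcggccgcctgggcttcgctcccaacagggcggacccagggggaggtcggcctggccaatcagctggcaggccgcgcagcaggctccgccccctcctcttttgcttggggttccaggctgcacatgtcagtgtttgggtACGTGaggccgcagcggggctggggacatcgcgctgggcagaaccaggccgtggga
Slc16a3: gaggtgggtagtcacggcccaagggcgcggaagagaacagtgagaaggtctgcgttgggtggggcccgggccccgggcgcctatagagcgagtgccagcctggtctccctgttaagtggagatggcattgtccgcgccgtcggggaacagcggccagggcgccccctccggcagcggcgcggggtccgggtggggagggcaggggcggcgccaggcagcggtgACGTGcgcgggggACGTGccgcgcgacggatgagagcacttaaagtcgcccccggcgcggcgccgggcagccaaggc
Hk2: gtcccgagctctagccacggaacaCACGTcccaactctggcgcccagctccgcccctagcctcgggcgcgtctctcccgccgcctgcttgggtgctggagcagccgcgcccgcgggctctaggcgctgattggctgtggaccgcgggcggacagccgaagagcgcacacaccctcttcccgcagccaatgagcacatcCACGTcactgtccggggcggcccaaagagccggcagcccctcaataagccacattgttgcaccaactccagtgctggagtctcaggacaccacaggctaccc
Hif1a: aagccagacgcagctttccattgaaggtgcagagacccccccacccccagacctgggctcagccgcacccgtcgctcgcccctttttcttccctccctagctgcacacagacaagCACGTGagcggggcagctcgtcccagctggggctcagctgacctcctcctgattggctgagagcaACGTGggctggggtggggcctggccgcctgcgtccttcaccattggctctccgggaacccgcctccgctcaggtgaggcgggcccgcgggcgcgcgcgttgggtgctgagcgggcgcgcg
Ak4: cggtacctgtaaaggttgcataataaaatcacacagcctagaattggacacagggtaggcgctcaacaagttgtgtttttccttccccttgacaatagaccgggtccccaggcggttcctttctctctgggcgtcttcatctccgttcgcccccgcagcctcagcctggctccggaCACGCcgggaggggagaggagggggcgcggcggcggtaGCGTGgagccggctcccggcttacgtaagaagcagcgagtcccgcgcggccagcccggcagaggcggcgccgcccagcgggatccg
Vegfa: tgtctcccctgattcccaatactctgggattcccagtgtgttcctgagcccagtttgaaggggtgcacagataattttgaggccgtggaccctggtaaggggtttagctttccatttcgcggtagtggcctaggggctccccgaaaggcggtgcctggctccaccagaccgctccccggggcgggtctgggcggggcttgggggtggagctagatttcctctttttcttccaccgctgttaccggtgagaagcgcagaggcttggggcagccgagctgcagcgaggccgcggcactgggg
P4ha1: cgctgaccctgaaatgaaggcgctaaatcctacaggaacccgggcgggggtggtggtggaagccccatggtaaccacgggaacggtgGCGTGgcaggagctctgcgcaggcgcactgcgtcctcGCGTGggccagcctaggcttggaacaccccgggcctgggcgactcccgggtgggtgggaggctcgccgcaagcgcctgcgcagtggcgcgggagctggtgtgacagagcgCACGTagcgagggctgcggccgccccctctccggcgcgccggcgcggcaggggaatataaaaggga

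The Bnip3 window holds 5 matches, 4 of them starting between 117 and 99 bases before the gene start. Ankrd37 holds 4, P4ha1 and Hif1a 3 each, and Slc16a3, Hk2 and Ak4 2 each. Those of Ak4 are both GCGTG, and the Vegfa window shown holds none. Windows at other listed starts of these genes do hold ACGTG: 1 of Ak4 holds CACGTG, and the other of Vegfa holds 1 ACGTG and 1 GCGTG. In Slc16a3 both are ACGTG, 27 and 14 bases before the start. A match is a run of letters and not a measured binding site.

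Of the 36 genes, 33 have a window in the RefSeq table, and for genes with several starts the first window listed was read. ACGTG on either strand was in 20 of them (60.6%), against 23.2% of 14369 windows of genes on the array and 19.7% of all 27025 windows. For GCGTG the counts were 19 of 33 (57.6%), against 44.3% of array genes and 32.5% of all windows. Either core was in 26 (78.8%), against 55.6% and 43.8%. CACGTG, which contains ACGTG on both strands and is also a site of Myc and its antagonists such as Mxi1, was in 5 (15.2%), against 9.04% and 7.24%. Both cores contain the pair CG, and the members' windows were richer in it, with a median of 25 CG pairs and 65.0% G or C, against 17 and 58.7% for array genes. The list was also chosen to include genes known as HIF-1α targets, so these shares do not come from a neutral choice of genes. The parts of base composition and of the choice of members in these shares were not tested. Of the members at least 2-fold higher with IL-6/IL-23 than under TGFβ, 5 of 7 with a window held ACGTG, and of the other measured members 14 of 24 did. Both counts use the first window listed. With every listed window read, ACGTG was in 26 of 33 members (78.8%), against 26.2% of array genes. A gene with more listed windows, such as Pfkm or Ak4 with 4 each, has more chances of a match. The number of windows per gene was not matched between members and array genes.

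Values below are quantile-normalized intensities in arbitrary units, listed for TGFβ first, IL-6/IL-23 second and IL-6/TGFβ last, and differences are log2 ratios. A floor of 47.2 was set from genes of other tissues, and all 33 members were above it on all 3 arrays, so every ratio was measured on both sides. As deposited, IL-6/IL-23 gave the dimmest array, with a median of 17.8 against 35.8 for TGFβ and 28.1 for IL-6/TGFβ. The 18 hybridization control probe sets fell in the same order (626, 1072 and 825). The scale between probe sets of 1 gene was an SD of 0.31 log2 units for IL-6/IL-23 relative to TGFβ, 0.23 for IL-6/TGFβ relative to TGFβ and 0.30 for IL-6/TGFβ relative to IL-6/IL-23. This spread leaves out differences between cultures and arrays. T cell markers were above the floor on every array for 8 of 8 genes measured, among them Cd3e and Cd4. Of 4 B cell markers at most 1 was above it on any array, and of 3 erythroid markers none. Stat6 read 259, 191 and 223 and Tbx21, the gene of T-bet, 189.7, 205 and 118, all above the floor, and whether these probes lie in the deleted parts is not known, so they do not check the genotype. Il17a read 498, 3273 and 3211 and Il10 read 62.8, 240.1 and 1012.

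Set against TGFβ alone, the IL-6/IL-23 culture had higher RNA for most of the list. Of 33 members, 30 were higher and 3 lower, and 9 (27.3%) were at least 2-fold higher, where 3.76% of 9620 genes passed this rule. None was 2-fold lower, where 3.52% of genes were. The 9 were Ak4, Slc2a3, Bnip3, Ndrg1, Slc16a3, Ankrd37, Vegfa, Hk2 and Hif1a. The members' median ratio was 0.62, against 0.06 over all genes. At 1.5-fold 19 members (57.6%) were higher and none lower, against 10.7% and 9.03% of genes. This pair differs in TGFβ, IL-6 and IL-23, so no ratio in it belongs to 1 cytokine. Myeloid markers gave a summed intensity over 6 genes of 282, 136 and 155. Most of this difference came from Mpeg1, which read 152.7, 21.9 and 25.7 and was above the floor with TGFβ alone. Csf1r, the only further myeloid marker above the floor on any array, read 63.2, 40.1 and 79.4, highest with IL-6/TGFβ. For 5 genes marking CD8 T cells or NK cells the sums were 413, 387 and 245, and these genes did not move together. Eomes read 106.9, 65.3 and 6.7 and Cd8a 144.6, 119.7 and 80.2, both highest with TGFβ. Cd8b1 was highest with IL-6/IL-23, at 140.0, 174.4 and 104.2. Klrd1 was above the floor with IL-6/TGFβ alone (53.0), and Ncr1 on no array. The part of these cell types in the results was not tested.

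**Figure D1:**
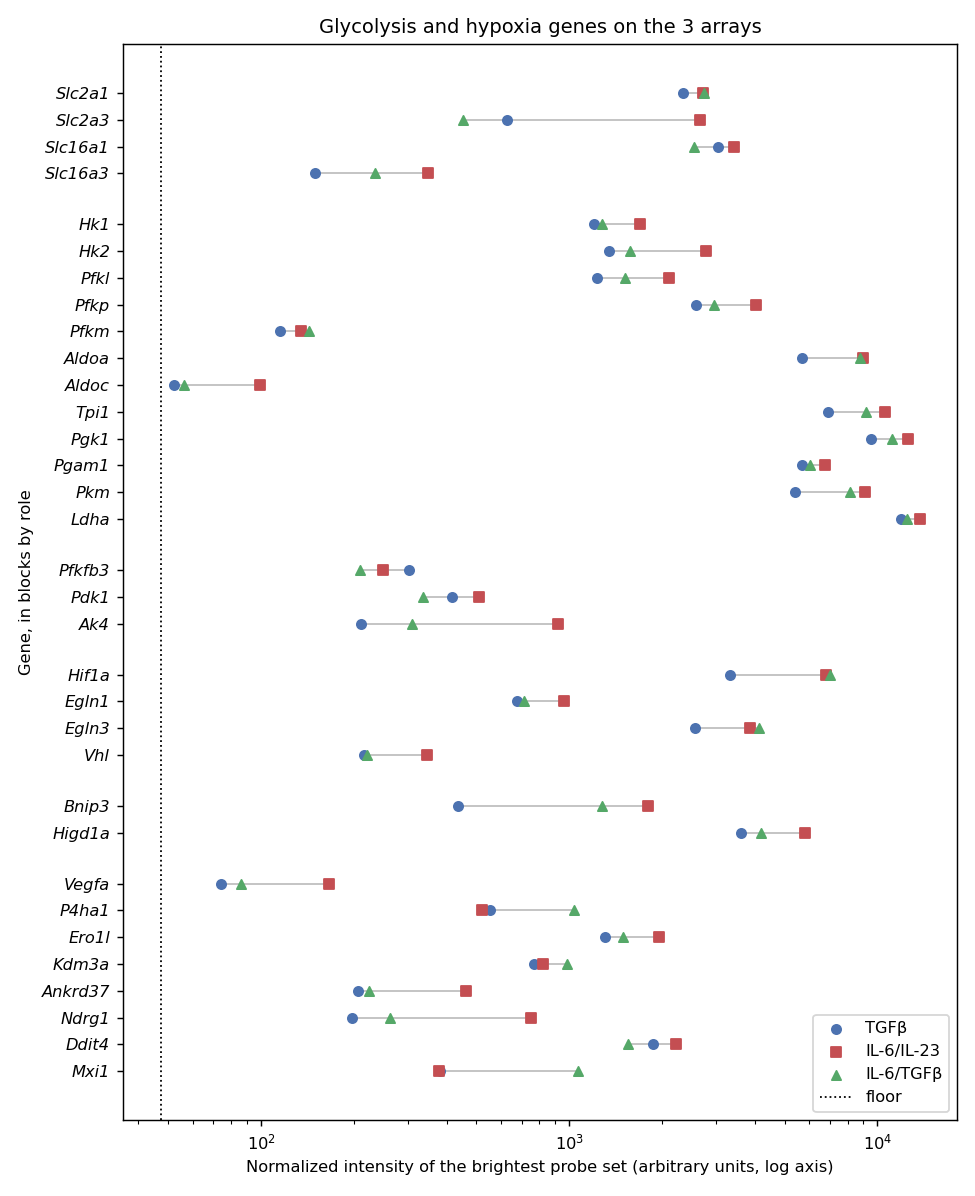
Normalized intensity of the brightest probe set (log axis, arbitrary units) for 33 genes in blocks by role, on 1 array per condition; the dotted line is the floor of 47.2. The IL-6/IL-23 square is the rightmost point for 25 of 33 genes; for Mxi1 the TGFβ circle (381) lies behind that square (379).

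Adding IL-6 to TGFβ, the pair that differs in 1 agent, gave smaller differences. Here 28 members were higher and 5 lower with IL-6/TGFβ, with a median ratio of 0.22 against 0.03 over all genes. The 3 members at least 2-fold higher (9.09%) were Bnip3, Mxi1 and Hif1a, where 2.83% of 9527 genes passed. Hif1a was under 2-fold with median scaling (0.98) and without scaling (0.63), which left 2 members. Without scaling 1.34% of all genes were 2-fold higher and 7.39% lower in this pair. None was 2-fold lower, where 2.23% of genes were. At 1.5-fold 8 members (24.2%) were higher and none lower, against 8.18% and 6.94% of genes.

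Between the IL-6 cultures, most of the list was lower with TGFβ than with IL-23. For IL-6/TGFβ relative to IL-6/IL-23, 26 members were lower and 7 higher, with a median of -0.43 against -0.04 over all genes. At least 2-fold lower were 4 members (12.1%), namely Slc2a3, Ak4, Ndrg1 and Ankrd37, where 3.73% of 9713 genes passed. Mxi1 was the 1 member at least 2-fold higher (3.03%), where 3.97% of genes were, a share near the background. At 1.5-fold 9 members (27.3%) were lower and 2 (6.06%) higher, against 11% and 10.5% of genes. The pairs share arrays, so their ratios are not independent of each other.

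Across the 3 arrays, 25 members (75.8%) were highest with IL-6/IL-23, 7 with IL-6/TGFβ and 1 with TGFβ. Among the 8583 genes above the floor on all arrays, 41.5% were highest with IL-6/IL-23, 31.6% with IL-6/TGFβ and 26.9% with TGFβ. TGFβ alone gave the lowest value for 26 members (78.8%), against 35.1% of those genes.

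**Figure D2:**
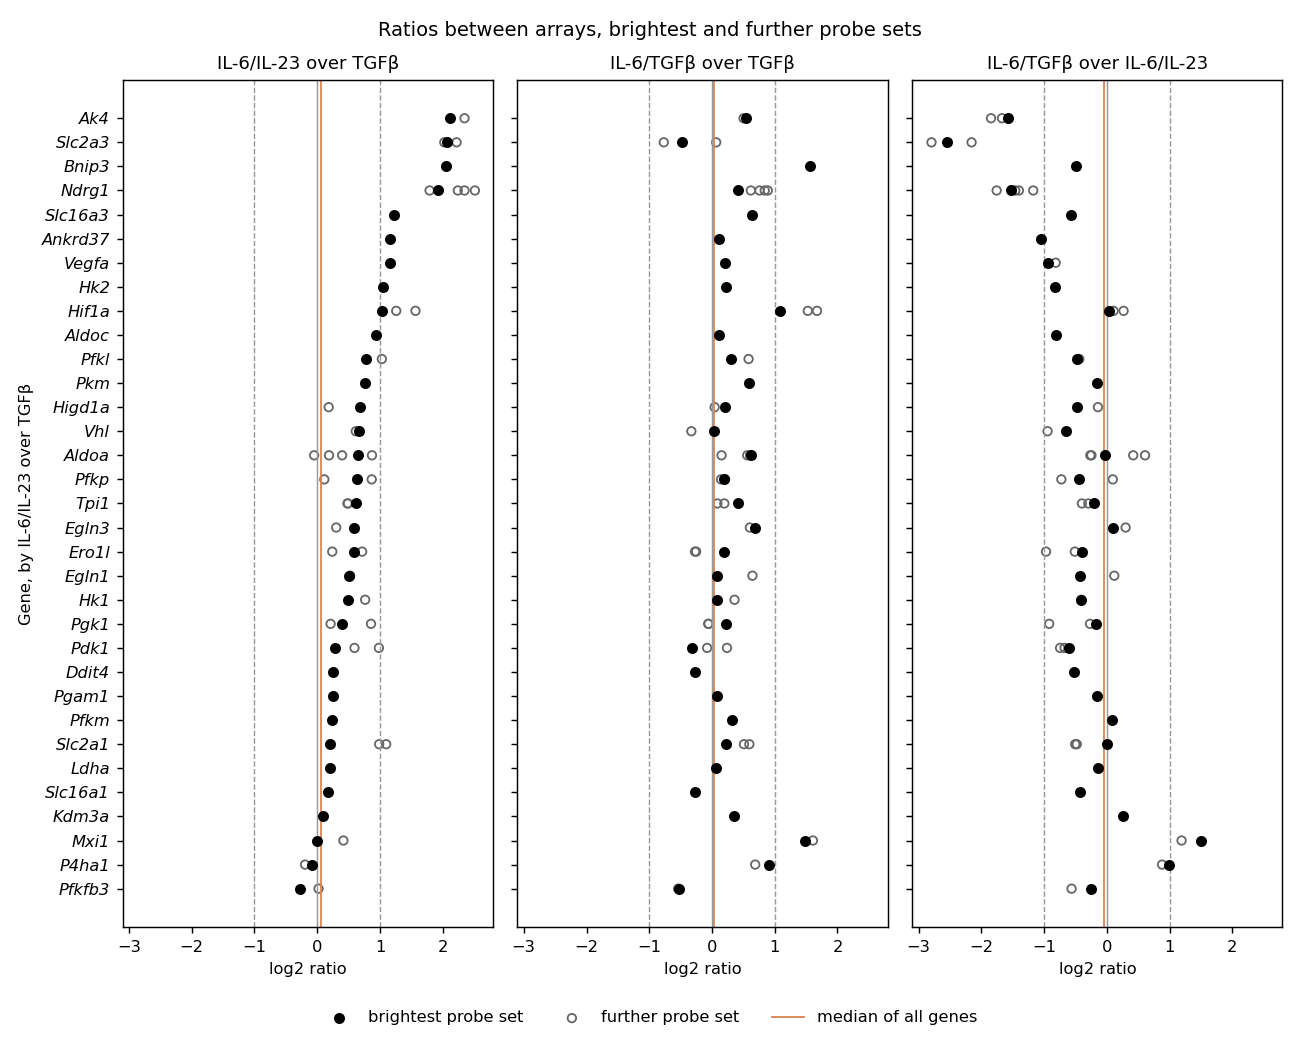
Log2 ratio of each of 33 genes in the 3 pairs of arrays (1 array per condition), with filled points for the brightest probe set and open points for further probe sets measured on both arrays; dashed lines mark 2-fold and the orange line the median of all genes. Ak4, Slc2a3, Bnip3 and Ndrg1 lie near or above 2 in the first panel, and Mxi1 is past 1 in both panels with IL-6/TGFβ.

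The transporters differed most by family member. Slc2a3, which encodes the high-affinity glucose transporter GLUT3, read 629.8, 2652 and 452. It was 4.21-fold higher with IL-6/IL-23 than under TGFβ (2.07), and IL-6/TGFβ stood lowest, at -2.55 against IL-6/IL-23. Its 3 further probe sets were all highest with IL-6/IL-23, with ratios over TGFβ of 2.22 and 2.02 for those measured on both arrays, and the third was at the floor on the other arrays. Against TGFβ, IL-6/TGFβ gave -0.48 for the brightest and 0.07 and -0.77 for the others, so the order of these cultures was not settled.

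Slc2a1, which encodes the main T cell glucose transporter GLUT1, read 2347, 2711 and 2731 on its brightest probe set, which placed the IL-6 cultures level. Its further probe sets read 1256, 2489 and 1787, and 858, 1838 and 1297. These placed IL-6/IL-23 above TGFβ by 0.99 and 1.10, against 0.21 for the brightest, so the size of the Slc2a1 difference depends on the probe set.

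Of the lactate carriers, Slc16a3, which encodes the exporter MCT4, read 150.2, 349 and 235. Both IL-6 cultures were higher than TGFβ, by 1.22 with IL-6/IL-23 and 0.65 with IL-6/TGFβ. Slc16a1, which encodes MCT1, read 3045, 3411 and 2535. Its ratio for IL-6/IL-23 relative to TGFβ (0.16) was smaller than the probe-set spread, while IL-6/TGFβ was lowest, at -0.26 against TGFβ and -0.43 against IL-6/IL-23, both past it.

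Among the glycolytic enzymes, all 12 were lowest with TGFβ alone on their brightest probe set, and 11 were highest with IL-6/IL-23. The differences were mostly under 2-fold, with a median of 0.63 for IL-6/IL-23 relative to TGFβ (range 0.20 to 1.05) and 0.23 for IL-6/TGFβ relative to TGFβ (range 0.06 to 0.62). The second median was no larger than the probe-set spread of that pair (0.23). The order of the enzymes also depended on scaling. Without it only Aldoa (0.22), Pkm (0.18) and Tpi1 (0.04) stayed above TGFβ with IL-6/TGFβ, where the median of all genes was -0.43. With IL-6/IL-23 only Hk2, Pkm (0.14), Tpi1 (0.08) and Aldoa (0.03) did, where that median was -0.86. Hk2, the inducible hexokinase that commits glucose to the pathway, was the 1 enzyme past 2-fold. It read 1342, 2775 and 1569, which is 2.07-fold higher with IL-6/IL-23 than under TGFβ, while IL-6/TGFβ stood close to TGFβ (0.22). The Hk2 ratio for IL-6/IL-23 relative to TGFβ was under 2-fold with cyclic loess, another scaling between arrays (0.99), and without scaling (0.16). Hk1, the constitutive hexokinase, read 1206, 1696 and 1278.

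Phosphofructokinase, the main control step, has 3 subunit genes. Pfkl, the liver-type subunit, read 1233, 2108 and 1521, and Pfkp, the platelet-type subunit, read 2584, 4026 and 2952. Both were highest with IL-6/IL-23, by 0.77 and 0.64 over TGFβ, though the dimmest Pfkp probe set put IL-6/TGFβ 0.096 above IL-6/IL-23. Pfkm, the muscle-type subunit, read 115, 135 and 143 and was the 1 enzyme highest with IL-6/TGFβ, by 0.09 over IL-6/IL-23, within the probe-set spread.

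The later steps of the pathway make and use pyruvate. Aldoa, an aldolase, read 5704, 8972 and 8789, and 4 of its 5 probe sets were higher with IL-6/TGFβ than under TGFβ by 0.56 to 0.62, with the other at 0.15. For IL-6/TGFβ relative to IL-6/IL-23 the Aldoa probe sets disagreed, between -0.26 and 0.61, so the order of the IL-6 cultures was not settled. They also disagreed for IL-6/IL-23 relative to TGFβ, with 0.65 on the brightest and -0.05 to 0.87 on the others. Aldoc, a further aldolase, was close to the floor at 52.0, 99.2 and 56.4. Tpi1, which interconverts the triose phosphates, read 6899, 10603 and 9191, and Pkm, the pyruvate kinase gene, read 5387, 9103 and 8144. Both IL-6 cultures were above TGFβ for these genes, with Pkm at 0.76 and 0.60.

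Pgk1, which makes ATP from bisphosphoglycerate, read 9542, 12519 and 11159, Pgam1, a mutase, read 5676, 6735 and 6021, and Ldha, lactate dehydrogenase A, read 11910.0, 13691 and 12449. On the brightest probe sets these 3 enzymes were within 0.39 of TGFβ in both IL-6 cultures. The further Pgk1 probe sets gave 0.21 and 0.86 for IL-6/IL-23 relative to TGFβ, and put IL-6/TGFβ slightly below TGFβ (-0.054 and -0.060). Ratios of the bright enzymes depended on the scaling. Scaling each array to a common median instead gave Ldha 0.93, Pgk1 1.00, Tpi1 1.09, Pkm 1.14 and Aldoa 1.04 for IL-6/IL-23 relative to TGFβ.

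Gapdh, the enzyme that oxidises glyceraldehyde phosphate, was read by 3 control probe sets along its transcript. The one nearest the 3′ end read 10478, 13023 and 11389, the middle one 12243, 14108 and 12833 and the 5′ one 13064, 15631 and 14579. All 3 put IL-6/IL-23 highest, by 0.20 to 0.31 over TGFβ, and TGFβ lowest, the order of 11 of the 12 enzymes. These ratios were at most about the probe-set spread of that pair (0.31), and the order rests on the normalization. As deposited, the 3′ probe set read 12078, 11808 and 11543 and the middle one 13612, 12921 and 12981, both highest with TGFβ. The 3 probe sets shared with pseudogenes are uncertain and disagree: they read 8874, 13198 and 12688, then 393.7, 498 and 358, while the third was above the floor with TGFβ alone (61.7).

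The genes that regulate flow into and out of the pathway did not move together. Ak4, which encodes a mitochondrial adenylate kinase and is a known HIF-1α target, read 211, 916 and 308. It had the largest ratio of the list for IL-6/IL-23 relative to TGFβ (2.12, 4.34-fold), and a further probe set measured on both arrays gave 2.35. Pdk1, the kinase that keeps pyruvate out of mitochondria, read 418, 511 and 336, and its 2 further measured probe sets gave 0.59 and 0.98 for IL-6/IL-23 relative to TGFβ, against 0.29 for the brightest. For IL-6/TGFβ relative to TGFβ the Pdk1 probe sets ran from -0.31 to 0.24, so that order was not settled. Pfkfb3, which makes the activator of phosphofructokinase, was the 1 member highest with TGFβ, at 303, 249 and 209, but its further probe set put IL-6/IL-23 level with TGFβ (0.021).

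HIF-1α and its regulators formed a group in which RNA for the factor and for a brake on it were both higher with IL-6. Hif1a read 3319.9, 6815 and 7006, so the IL-6 cultures were nearly equal (0.04 apart) and about 2-fold above TGFβ (1.04 with IL-6/IL-23 and 1.08 with IL-6/TGFβ). Further Hif1a probe sets gave larger ratios over TGFβ, 1.26 and 1.57 with IL-6/IL-23 and 1.53 and 1.67 with IL-6/TGFβ. Egln3, a prolyl hydroxylase that HIF-1α itself induces, followed the same order at 2554, 3852 and 4127. Egln1, the main oxygen sensor, read 676, 959 and 713 on its brightest probe set, and the further one gave 0.52 and 0.64 over TGFβ, with IL-6/TGFβ highest there. Vhl, the recognition part of the ubiquitin ligase, read 216, 345 and 220.1, and its further probe set gave -0.33 for IL-6/TGFβ relative to TGFβ against 0.03 here.

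**Figure D3:**
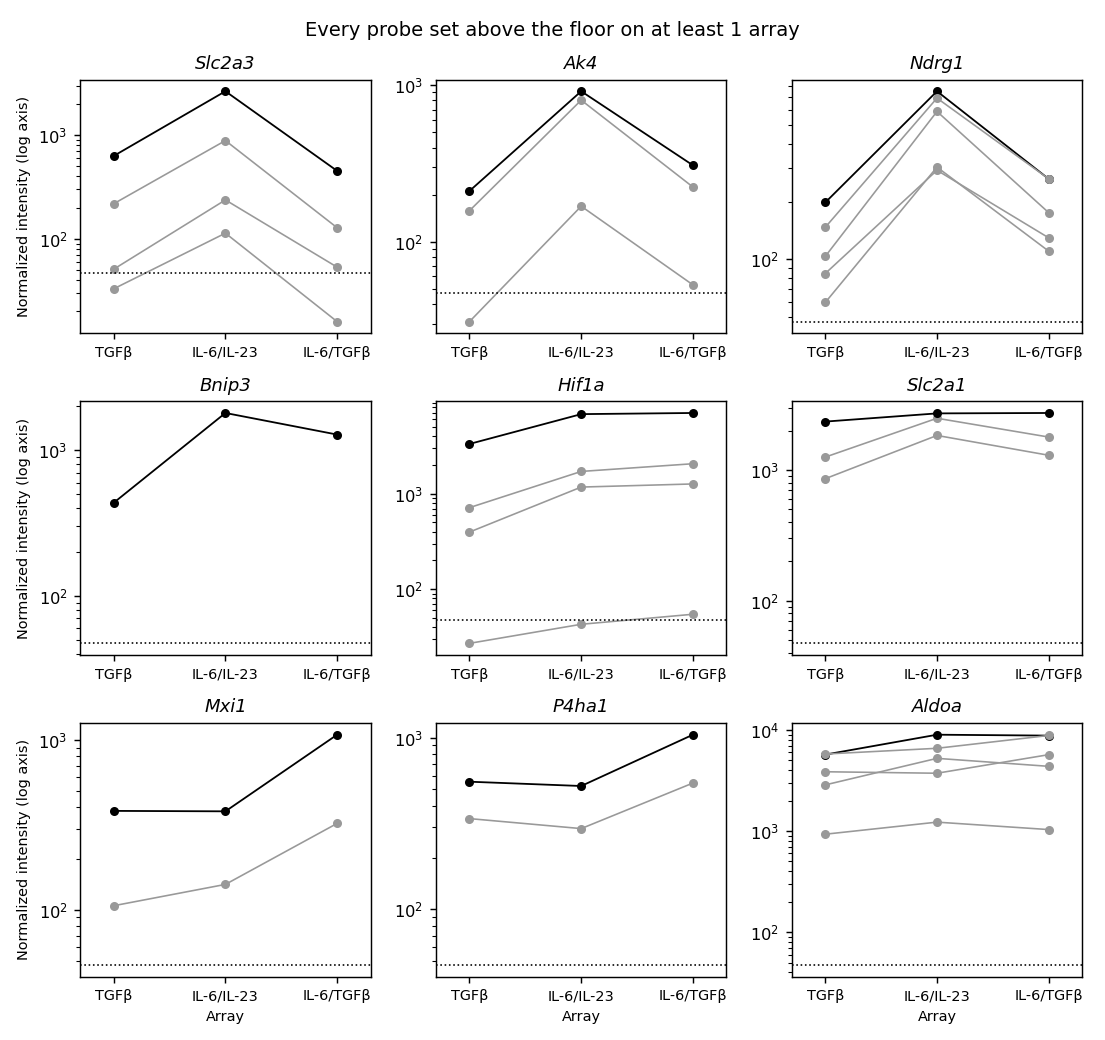
Normalized intensity (log axis) on the 3 arrays, 1 per condition, for every probe set above the floor (dotted) on at least 1 array, with the brightest in black and the others in grey, for 9 genes. All probe sets of Slc2a3, Ak4 and Ndrg1 peak with IL-6/IL-23, those of Hif1a are lowest with TGFβ, both of Mxi1 and P4ha1 peak with IL-6/TGFβ, and those of Aldoa disagree.

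The targets split into 3 patterns. In the first, both IL-6 cultures were above TGFβ. Bnip3, which encodes a mitochondrial protein that marks mitochondria for removal, read 436, 1800.5 and 1279.8, or 2.05 with IL-6/IL-23 and 1.55 with IL-6/TGFβ, from its 1 probe set. A Bnip3l probe set that also matches a pseudogene read 841, 1442 and 1317.

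In the second pattern the level was high with IL-6/IL-23 and IL-6/TGFβ stood closer to TGFβ. Ndrg1, a stress-responsive gene, read 198, 753 and 262, and its 5 probe sets lay between 1.79 and 2.51 for IL-6/IL-23 relative to TGFβ. For IL-6/TGFβ relative to TGFβ its brightest probe set gave 0.41 and the further ones 0.62 to 0.89, so IL-6/TGFβ was also above TGFβ. Ankrd37, which encodes an ankyrin-repeat protein, read 207, 463 and 224. Vegfa, the angiogenic growth factor, read 74.3, 166 and 86.2, and its IL-6/TGFβ level was -0.94 against IL-6/IL-23. Vegfa was dim, and its further probe set was at the floor with TGFβ. Its ratio for IL-6/IL-23 relative to TGFβ (1.16) was only at least 0.61 with a higher floor of 109, and 0.11 without scaling. Higd1a, which encodes a mitochondrial inner membrane protein, read 3621, 5837 and 4182, and Ero1l, an oxidase of disulphide formation in the endoplasmic reticulum, read 1302, 1959 and 1489. Both of these were under 2-fold, and the further Ero1l probe sets put IL-6/TGFβ below TGFβ (-0.25 and -0.27).

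In the third pattern IL-6/TGFβ was highest. Mxi1, a Myc antagonist, read 381, 379 and 1071, so TGFβ alone and IL-6/IL-23 were level (-0.01) and the combination was higher by 1.49 and 1.498. Its further probe set gave 1.61 and 1.19, with IL-6/IL-23 above TGFβ by 0.42. P4ha1, the catalytic subunit of collagen prolyl hydroxylase, read 553, 522 and 1039.7, or 0.91 and 0.99 for IL-6/TGFβ relative to TGFβ and over IL-6/IL-23, just under 2-fold in both. Kdm3a, a histone demethylase, read 770.1, 819 and 979.7, with ratios of 0.35 and 0.26. The second, over IL-6/IL-23, was within the probe-set spread and was 0.03 with median scaling, so the order of the IL-6 cultures was not settled. Ddit4, an inhibitor of mTORC1, had a different order at 1871, 2227 and 1546, lowest with IL-6/TGFβ by -0.27 and -0.53.

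Other genes of these pathways were read from 6 lists, whose counts stand against the same shares of all genes: 3.76% higher and 3.52% lower for IL-6/IL-23 relative to TGFβ, 2.83% and 2.23% for IL-6/TGFβ relative to TGFβ, and 3.97% and 3.73% for the IL-6 cultures. Of 12 further glycolysis genes above the floor, 2 were 2-fold higher and 2 lower for IL-6/IL-23 relative to TGFβ. The higher ones were Eno2, an enolase (1.18), and Pgm1, which links glycogen to glycolysis (1.05). The lower ones were Eno3, the muscle enolase, which read 1363, 381 and 293 (-1.84, and -2.22 for IL-6/TGFβ relative to TGFβ), and Galm, the galactose mutarotase (-1.69, and -1.04). For IL-6/TGFβ relative to TGFβ 0 of 11 were higher and 2 lower, and for IL-6/TGFβ relative to IL-6/IL-23 0 and 0. Of 6 pentose phosphate genes none was 2-fold apart in any pair, and the 2 with the largest ratios were Pgd, at 0.75 for IL-6/IL-23 relative to TGFβ, and Taldo1, at 0.37 for IL-6/TGFβ relative to IL-6/IL-23.

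Of 15 pyruvate and lactate genes, none was 2-fold higher in any pair. Slc2a6, a sugar transporter gene, was at least 2.64-fold lower in both IL-6 cultures than under TGFβ, being at the floor there. Pdp1, the phosphatase that reactivates pyruvate dehydrogenase, was lower with IL-6/TGFβ than under IL-6/IL-23 (-1.12). Of 13 genes of the HIF pathway 1 passed 2-fold, in both pairs with IL-6/IL-23. It was Cited2, which encodes a competitor of HIF-1α for its coactivators, at 239, 633 and 198 (1.40 over TGFβ, and -1.67 for IL-6/TGFβ relative to IL-6/IL-23).

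Of 31 further hypoxia targets above the floor on any array, 2 were higher and 2 lower for IL-6/IL-23 relative to TGFβ, 2 of 27 higher and 0 lower for IL-6/TGFβ relative to TGFβ, and 5 of 30 higher and 7 lower for IL-6/TGFβ relative to IL-6/IL-23. The 2 of 31 in each direction lie near the share of all genes. The 7 lower were Bhlhe40, a transcriptional repressor gene (-1.47), Gbe1 (-1.38) and Gys1 (-1.06), which make glycogen, Angptl4 (-1.10), Errfi1 (-1.09), the carbonic anhydrase gene Car12 (-1.07) and P4ha2 (at least 2.08-fold, from the floor). The 5 higher were Klf10, a TGFβ-inducible gene (2.01), Plod2, a collagen lysyl hydroxylase (1.71), Sfxn3 (1.60), Rora, a Th17 transcription factor (1.27), and the cell cycle inhibitor Cdkn1b (1.08). Rora (1.83) and Plod2 (1.25) were also the ones higher with IL-6/TGFβ than under TGFβ. For IL-6/IL-23 relative to TGFβ the higher ones were Bhlhe40 (1.23) and P4ha2 (at least 2.08-fold), and the lower ones Klf10 (-1.88) and Sfxn3 (-1.54).

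Of 22 upstream regulators, 2 were higher and 2 lower for IL-6/TGFβ relative to IL-6/IL-23. The higher ones were Mxd1 (1.40) and Mxd4 (at least 2.36-fold), which like Mxi1 antagonise Myc, and the lower ones Max, the shared partner of Myc and its antagonists (-1.24), and Sesn2, a stress-induced inhibitor of mTORC1 (-1.15). Mnt, a further Myc antagonist, was higher with IL-6/TGFβ than under TGFβ (1.04), and it was the 1 of 21 that was, with 0 lower. For IL-6/IL-23 relative to TGFβ Sesn2 was higher (1.10) and Mxd1 (-1.10) and Mxd4 (at least 2.17-fold) were lower. Myc itself, named after its values were seen, was nearly level at 2713, 3204 and 3043.

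The direction of the list against TGFβ depends on putting the arrays on a common scale. As deposited, without scaling, the median of all genes above the floor was -0.86 for IL-6/IL-23 relative to TGFβ and that of the members -0.14, so the list lay 0.73 above all genes. With each array scaled to its hybridization controls the members' median was 0.64 and that of all genes -0.10. Over the 5 scalings 30 of 33 members lay above the median of all genes in this pair. Unscaled, 4 members were still at least 2-fold higher, namely Slc2a3 (1.20), Ak4 (1.20), Bnip3 (1.15) and Ndrg1 (1.00), on the dimmest array of the series, and 2 were 2-fold lower, P4ha1 (-1.02) and Pfkfb3 (-1.26). Of all genes, 0.891% were then 2-fold higher and 34.9% lower. Relative to the unscaled median of all genes, 8 members were 2-fold over and 0 under. The split of calls was then 4 higher to 2 lower, against 9 to 0. For IL-6/TGFβ relative to IL-6/IL-23 it was 2 to 3 unscaled, 2 to 3 with hybridization controls and 1 to 6 with median scaling, against 1 to 4. The shares of all genes higher and lower were 12.3% and 1.46% unscaled, 5.01% and 2.81% with hybridization controls and 3.11% and 5.21% with median scaling.

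**Figure D4:**
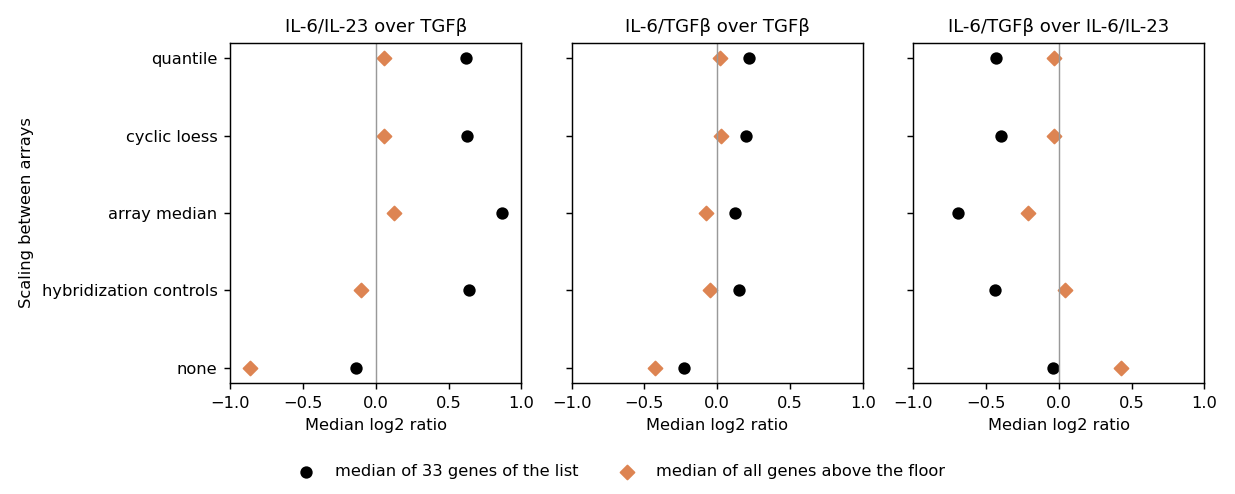
Median log2 ratio of the 33 genes (circles) and of all genes above the floor on all arrays (diamonds) in the 3 pairs of arrays, under 5 ways of scaling the arrays, from 1 array per condition. The circles stay right of the diamonds in the pairs over TGFβ and left of them in the third panel, while both shift together without scaling.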

How the data were processed

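Biotinylated cRNA of 3 cultures was measured on 1 Affymetrix array each, per the labels' protocols. The authors deposited a linear intensity for every probe set. How they summarized, scaled and background-corrected it is not given in the sources used here. Log2 intensities of 45037 probe sets were quantile-normalized together (limma 3.58.1, R 4.3.3), leaving out 64 control probe sets; this removes any difference in total mRNA. Control probe sets were placed on the same scale by interpolation. Of the probe sets, 34945 named 1 gene, 932 several and 9160 none, by the platform annotation (RefSeq GRCm38.p6 identifiers renamed 0). Lower values were raised to the floor, set at the 95th percentile over 102 probe sets for 67 genes of other tissues. The probe-set spread is the SD of a log2 ratio, from the median absolute deviation between the brightest 2 probe sets of each gene. A gene was counted at 2-fold or more with the brighter array above the floor.

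The members and lists were chosen with earlier results of these data known. All measured members are named; of the other lists, every gene past 2-fold, or the 2 with the largest ratios. The counting steps were checked on simulated data. Alternatives covered scaling, probe set, floor, fold and members. Precision is limited by 1 array per condition.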

Additional observations from a re-analysis of the deposited data

How the results depend on the processing

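The counts and medians were recomputed under 12 alternatives, 2 of them (hybridization control scaling, and Gapdh added through its control probe sets) chosen after seeing the data. No paired analysis was possible because each condition has 1 array. Without scaling, the members' median turned from 0.22 to -0.23 for IL-6/TGFβ relative to TGFβ and from 0.62 to -0.14 for IL-6/IL-23 relative to TGFβ, and moved to -0.037 for IL-6/TGFβ relative to IL-6/IL-23. The counts were then 2 higher for IL-6/TGFβ relative to IL-6/IL-23, and 4 higher and 2 lower for IL-6/IL-23 relative to TGFβ. These shifts follow the array medians, which no step then equalizes. With hybridization control scaling 2 members were higher for IL-6/TGFβ relative to IL-6/IL-23. With all probe sets of a gene averaged 2 were higher in that pair, and 1 was lower for IL-6/IL-23 relative to TGFβ. Slc16a1 was among the former (1.01) and was the latter (-1.44), both through a probe set below the floor on all arrays. Its brightest probe set gave -0.43 and 0.16 in these pairs. A 1.5-fold threshold gave 8 higher for IL-6/TGFβ relative to TGFβ, 2 higher and 9 lower for IL-6/TGFβ relative to IL-6/IL-23 and 19 higher for IL-6/IL-23 relative to TGFβ. The glycolytic enzymes alone gave 0 higher, then 0 higher and 0 lower, and 1 higher in the same order. The other counts stayed within 1.5 times, and the other medians within the probe-set spread.

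Precision cannot be judged beyond the probe-set spread, since no culture was repeated.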
